A study of Mus musculus with 26 samples.

Results

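Hemi and Entire are the dissection labels that mouse microglia libraries carry in a study of Tmem106b and Grn genotypes, and what the words stand for is not given in the sources used here. Of 26 poly(A) RNA libraries, 23 came from the 6 genotypes that hold both labels, with 8 labelled Hemi and 15 labelled Entire. The 3 libraries of the genotype TMEM HET GRN HET were all Entire and were left out of the main comparison. All libraries were compared within genotype, so that a Hemi library was set against Entire libraries with the same Tmem106b and Grn alleles. TMEM WT GRN WT held 1 Hemi and 2 Entire libraries, TMEM HET GRN WT held 2 and 2, and TMEM KO GRN WT held 1 and 3. TMEM WT GRN HET held 2 Hemi and 3 Entire libraries, TMEM WT GRN KO held 1 and 3, and TMEM HET GRN KO held 1 and 2. WT, HET and KO are written as in the labels, which give no strain, age or construct. Whether the libraries stem from separate animals is not stated, and the p-values therefore cover only library-to-library spread, which may be technical in part.

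Microglia are the resident macrophages of the brain parenchyma. In the undisturbed brain they express a homeostatic set of surface receptors and sensors, and they carry a large lysosomal system for degrading what they engulf. Progranulin, the product of Grn, is secreted and sorted to lysosomes, and TMEM106B, the product of Tmem106b, spans the membranes of late endosomes and lysosomes. RNA from a microglia preparation can also hold transcripts of neurons, glia, vessels and blood cells that come with the tissue. The defining microglia genes were abundant in every library, with the 22 genes of the homeostatic list summing to 20810 CPM (counts scaled to the library total) or more.

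The libraries held 37.6 to 63.7 M counts. Sex was not balanced: 3 Hemi libraries were female and 5 male, against 10 and 5 among Entire. In TMEM HET GRN KO, TMEM HET GRN WT and TMEM WT GRN WT every Hemi library differed in sex from every Entire library, so that dissection and sex cannot be told apart within those 3 genotypes. The Hemi libraries of TMEM KO GRN WT and TMEM HET GRN KO stood apart on the first principal component, which held 27.3% of the variance, at 248 and 236 against -129 to 106 in the other 21 libraries. Grn set the libraries labelled Grn KO apart from the rest, while the WT and HET labels were not checked against each other. It lay at 8.41 CPM in the TMEM HET GRN KO Hemi library and 15.9 CPM in the TMEM WT GRN KO Hemi library, above the 5 Entire libraries of those genotypes at 0 to 3.26 CPM. In the 4 genotypes labelled Grn WT or HET the Hemi libraries held 588 to 2966 CPM of Grn and the Entire libraries 1599 to 4416 CPM. Over the 6 genotypes the fitted log2 fold change of Grn was 0.91 ± 0.94 (SE), with an adjusted p of 0.55 in edgeR's quasi-likelihood test. The log2 ratio of mean CPM, Hemi over Entire, was 3.15 in TMEM HET GRN KO and 3.70 in TMEM WT GRN KO, at low counts. In the 4 genotypes labelled Grn WT or HET it was negative, from -0.48 in TMEM HET GRN WT to -2.49 in TMEM KO GRN WT. Tmem106b differed by a log2 fold change of -0.09 ± 0.13 (SE, adjusted p = 0.70, edgeR). It ran from 28.3 to 88.6 CPM in Hemi and from 23.7 to 103.8 CPM in Entire. Libraries labelled TMEM KO thus held Tmem106b counts too, and the Tmem106b labels were not checked as the Grn KO labels were.

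Library measures were compared by permuting the 2 labels within genotype, an exact two-sided test over 8640 arrangements with adjustment over 5 measures. Sex did not enter this test, so its p-values carry no adjustment for the sex imbalance given above. The 10 highest genes took 4.004% to 17.2% of the counts in Hemi libraries (median 10.5%) and 11.8% to 22.9% in Entire libraries (median 13.8%). This share was lower in Hemi in all 6 genotypes, by 4.75 percentage points within genotype (exact permutation p = 0.00069, adjusted p = 0.0035). Hemi libraries detected 14025 to 15163 genes at 1 CPM or more, against 13450 to 15216 in Entire (exact permutation adjusted p = 0.024). Mitochondrial genes took 0.212% to 0.312% of the counts in Hemi and 0.120% to 0.369% in Entire, and the within-genotype difference was 0.076 percentage points (exact permutation adjusted p = 0.024). Total counts differed by -0.03 on the log2 scale and the exonic share by 0.32 percentage points (exact permutation adjusted p = 0.64 for both). The calls on genes detected and on mitochondrial share each passed the threshold only with particular Hemi libraries in place: leaving out TMEM WT GRN KO Hemi gave adjusted p of 0.073 and 0.11, and leaving out TMEM WT GRN WT Hemi gave 0.063 for genes detected, while leaving out TMEM HET GRN KO Hemi gave 0.073 for mitochondrial share.

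Across genes, Hemi libraries carried more transcripts of neurons and of energy and sterol metabolism, and less of the transcripts that define microglia. Of 22271 genes tested, 2654 were higher in Hemi (11.9%) and 1550 were lower (6.96%) at an adjusted p under 0.05 in edgeR's quasi-likelihood test, with genotype and sex in the model. The higher genes moved further: their median log2 fold change was 1.82, and 1217 of them differed by more than 4-fold. The lower genes had a median of -0.71, and 105 differed by more than 4-fold. The median over all genes tested was -0.05. Of the 2654 genes called higher, 1259 were higher in Hemi in the mean of each of the 6 genotypes. Of the 1550 called lower, 1261 were lower in each. Among all genes tested, called or not, these counts were 1720 and 2390. These counts depended on which libraries were compared. In the 10 libraries of a genotype and sex with both labels (3 Hemi, 7 Entire) 44 genes were higher and 3 lower. The Grn WT genotypes alone gave 1073 higher and 74 lower, and the Grn HET and KO genotypes alone gave 0 and 0 in edgeR, with 3750 genes at an unadjusted p under 0.05.

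**Figure D1:**
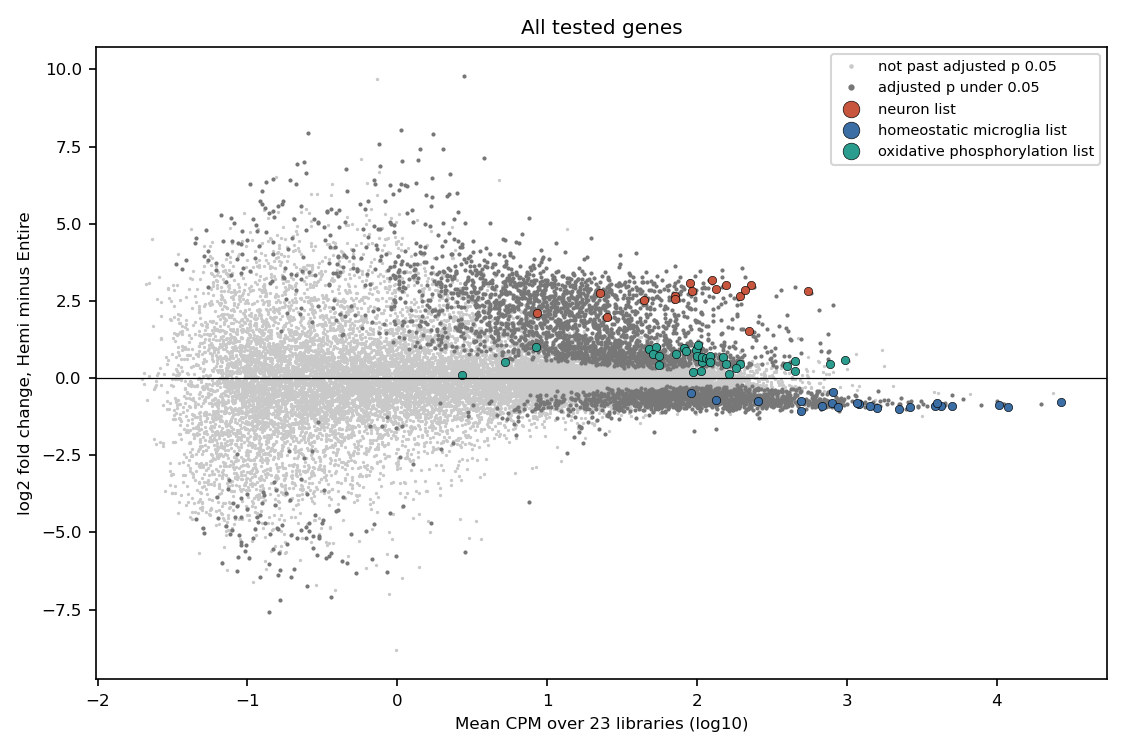
Log2 fold change of Hemi minus Entire (y axis) against mean CPM over 23 libraries on a log10 scale (x axis) for 22271 genes; dark grey points passed an adjusted p under 0.05, and coloured points are members of 3 gene lists. All 16 neuron genes lie above 0 and all 22 homeostatic genes lie below 0, with the homeostatic genes among the most abundant.

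The neuron list, 16 genes of axons, synapses and the neuronal cytoskeleton, was higher in Hemi at every member, with a median log2 fold change of 2.78. By the rule for named genes its leading members were Thy1, a neuronal surface glycoprotein, Uchl1, a neuronal deubiquitinase, and the microtubule regulators Stmn3 and Stmn2. Uchl1 (chromosome 5, 66676091 to 66687234) lay at 149.5 CPM in the TMEM WT GRN WT Hemi library against 13.8 and 14.0 CPM in Entire. In TMEM KO GRN WT it was 711 CPM in Hemi against 31.8, 97.5 and 31.9 CPM in Entire, and in TMEM HET GRN KO 741 CPM against 60.0 and 193 CPM. The 2 Hemi libraries of TMEM WT GRN HET held 331 and 116 CPM against 16.6 to 45.0 CPM in Entire, and those of TMEM HET GRN WT held 68.5 and 90.4 CPM against 9.65 and 7.92 CPM. TMEM WT GRN KO was the exception, where the Hemi library at 76.3 CPM fell inside the Entire range of 65.4 to 91.2 CPM. The fitted change of Uchl1 was 7.31-fold (log2 2.87 ± 0.39 SE, adjusted p = 0.00091, edgeR).

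Summed over the neuron list, Hemi libraries held 1149, 2435 and 13890 CPM (lowest, median, highest) and Entire libraries 202, 600 and 3843 CPM. The ranges overlapped over all libraries, but within 5 of the 6 genotypes every Hemi library lay above every Entire library. In TMEM WT GRN KO the Hemi library held 1149 CPM, between the Entire values of 970 and 1553 CPM. The 2 highest sums were those of the Hemi libraries that stood apart, TMEM KO GRN WT at 13890 CPM and TMEM HET GRN KO at 13300 CPM. Without those 2 libraries 15 of the 16 genes were still called higher, with a median of 2.67. None of the 16 was called among the sex-matched libraries (median 2.44) or in the Grn HET and KO genotypes alone (median 1.79), while 15 were called in the Grn WT genotypes alone (median 3.43).

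**Figure D2:**
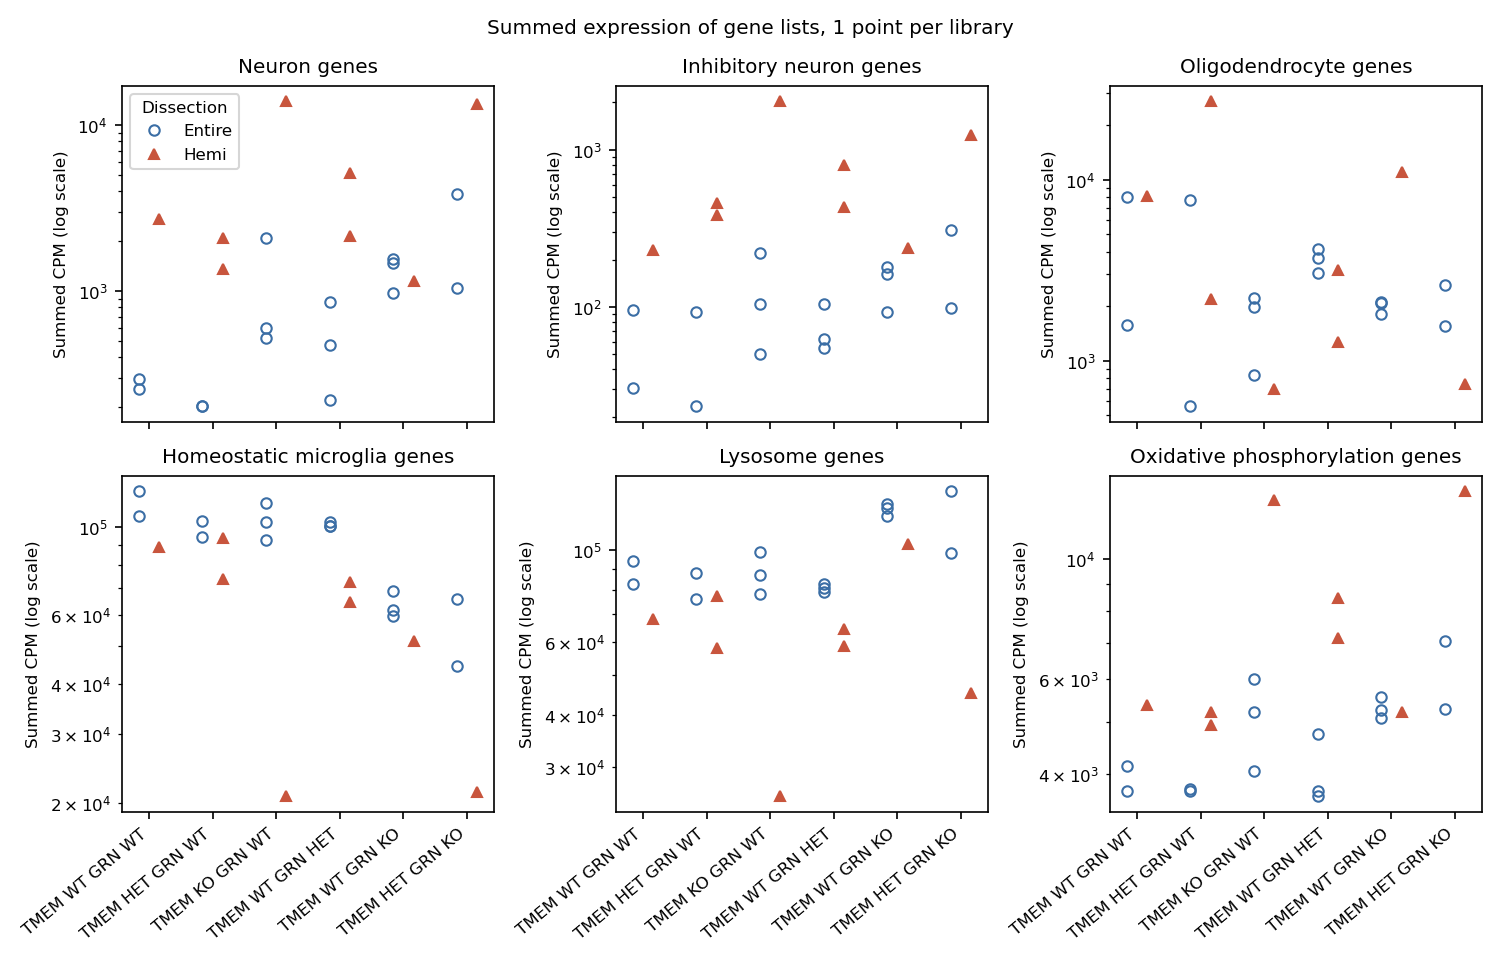
Summed CPM on a log scale (y axis) of 6 gene lists by genotype (x axis), with 1 open circle per Entire library and 1 filled triangle per Hemi library. Neuron sums in Hemi lie above Entire in each genotype but TMEM WT GRN KO, and the homeostatic and lysosome sums are lowest in the Hemi libraries of TMEM KO GRN WT and TMEM HET GRN KO.

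Neuron subtype lists moved the same way. Of 10 inhibitory neuron genes 7 were higher and 0 lower, with a median of 3.60, and of 10 excitatory neuron genes 6 were higher and 0 lower, with a median of 1.59. Gad1, which makes GABA, rose 12.4-fold in the fit, and its libraries spread from 6.80 to 510 CPM in Hemi and from 0.534 to 81.9 CPM in Entire. In TMEM WT GRN KO Gad1 went the other way, at 6.80 CPM in Hemi against 11.5 to 35.3 CPM in Entire. The inhibitory neuron sum did not, at 237.5 CPM in Hemi against 92.6 to 178 CPM in Entire in that genotype. Pvalb, a calcium buffer of a class of fast-spiking interneurons, rose 11.8-fold with a Hemi median of 25.1 CPM and an Entire median of 3.30 CPM. Among excitatory genes, Slc17a6 (a vesicular glutamate transporter) rose 7.38-fold, Gria1 (an AMPA receptor subunit) 4.32-fold and Camk2a (a synaptic kinase) 2.77-fold.

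Other brain cell types divided. The oligodendrocyte precursor list had 4 of 10 genes higher and 0 lower, with a median of 1.98: Lhfpl3, C1ql1, the proteoglycan gene Cspg4 and the receptor gene Gpr17. None of 12 oligodendrocyte genes (median 0.42) and none of 12 astrocyte genes (median 0.23) was called. The oligodendrocyte sum ran from 699 to 27090 CPM in Hemi and from 560 to 7995 CPM in Entire, and 3 Hemi libraries lay above every Entire library. Within genotypes the Hemi library lay above the Entire ones in TMEM WT GRN KO and TMEM WT GRN WT and below them in TMEM KO GRN WT and TMEM HET GRN KO, and the labels overlapped in the other 2 genotypes. None of the endothelial, mural, fibroblast or choroid plexus genes was called. The choroid plexus sum was 43810 CPM in 1 Hemi library of TMEM WT GRN HET and at most 5617 CPM in the other 7.

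Some genes known for single brain regions also passed the test: the thalamus list had 7 of 10 higher and 1 lower (median 2.31), the striatum list 4 of 10 higher (median 2.49), and the cerebellum list 4 of 10 higher (median 2.07). The hypothalamus list had 3 of 10 higher (median 3.26), the olfactory bulb list 3 of 9 (median 2.19), the hippocampus list 2 of 9 (median 1.09), and the medial habenula list 1 of 10 (median 1.11). Of the neocortex genes 2 of 10 were higher and 1 lower, of the hindbrain genes 1 of 4 was higher, and of 7 midbrain genes none was called. Calb1 and Calb2, calcium-binding proteins of neuron subsets, rose 7.64-fold and 7.77-fold. Penk, an opioid peptide precursor gene of the striatum list, ran from 0.626 to 212 CPM in Hemi and from 0 to 29.2 CPM in Entire. Over all genes tested 11.9% were higher and 6.96% lower. The 1 of 10 of the medial habenula list is near that share, and 1 or 2 calls in lists this short say little about a region. These lists share members with one another and with the neuron lists, and many of their genes were near the detection limit in Entire libraries.

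The 15 higher genes of smallest p were Cspg5, Fam19a5, Spon1, Gabrb1, Thy1, Npdc1, Kctd17, Uchl1, Chpf, Lsamp, Bex1, Fyn, Map9, Tagln3 and Jakmip1, chosen from this same contrast. Cspg5 (chromosome 9, 110243783 to 110262576) encodes a brain chondroitin sulfate proteoglycan. It ran from 37.6 to 323 CPM in Hemi (median 141 CPM) and from 9.16 to 101 CPM in Entire (median 24.4 CPM), and within each genotype the 2 groups did not overlap. Spon1 (chromosome 7, 113765998 to 114043370) encodes F-spondin, a secreted matrix protein. Its Hemi values of 44.5 to 108.5 CPM lay above all Entire values of 6.10 to 42.8 CPM. Fyn, a Src family kinase of neurons, glia and lymphocytes, moved least of the 15, at 2.15-fold. Others were the GABA receptor subunit gene Gabrb1 (6.68-fold), the cell adhesion gene Lsamp (4.85-fold), the microtubule-associated Map9 (5.45-fold), and Bex1, a brain-expressed adaptor gene (9.88-fold). For 13 of the 15 genes the smallest ratio lay in TMEM WT GRN KO, where Gabrb1, Uchl1 and Jakmip1 were not higher in Hemi.

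Promoter windows of 300 bases, 250 before and 50 after the start, were taken from RefSeq (GRCm38.p6) and searched on both strands for 2 motifs, GAGGAAGT of the myeloid factor PU.1 and the cAMP response element TGACGTCA, which reads the same on both strands. Among all tabulated windows the first was held by 3.20% and the second by 1.79%. The whole set of windows and 7 sets of genes were searched, and each of the 7 sets had windows for under 80% of its genes (56.2% to 75.6%), so a comparison of shares between sets is void. Of the named higher genes with a window, 1 of 10 held each motif (PU.1 letters in Map9, response element in Chpf), and of the named lower genes 0 of 11 held either. Neither motif was found in the 15 homeostatic genes with a window, and 1 of 9 neuron list genes held the response element. The windows of Chpf, which encodes a chondroitin polymerizing factor, at chr1:75479422-75479721 on the minus strand, and of Syn1, a synaptic vesicle protein gene, at chrX:20920869-20921168 on the minus strand, are shown because both genes were higher in Hemi and carry the response element, in capitals.
Chpf: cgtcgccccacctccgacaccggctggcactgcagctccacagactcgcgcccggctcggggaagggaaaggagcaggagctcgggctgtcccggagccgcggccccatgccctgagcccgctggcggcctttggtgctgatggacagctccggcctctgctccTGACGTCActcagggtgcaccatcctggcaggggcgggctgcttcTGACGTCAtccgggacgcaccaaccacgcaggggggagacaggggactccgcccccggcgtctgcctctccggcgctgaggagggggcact
Syn1: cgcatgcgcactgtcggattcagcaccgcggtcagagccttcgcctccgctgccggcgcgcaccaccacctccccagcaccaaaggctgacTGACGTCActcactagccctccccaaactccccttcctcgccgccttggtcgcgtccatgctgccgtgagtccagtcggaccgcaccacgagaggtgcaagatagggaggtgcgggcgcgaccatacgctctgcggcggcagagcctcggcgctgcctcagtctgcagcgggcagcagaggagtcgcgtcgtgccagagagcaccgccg
Chpf rose 3.33-fold (36.0 to 161 CPM in Hemi, 8.68 to 76.2 CPM in Entire), and Syn1 had a log2 fold change of 2.81.

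**Figure D3:**
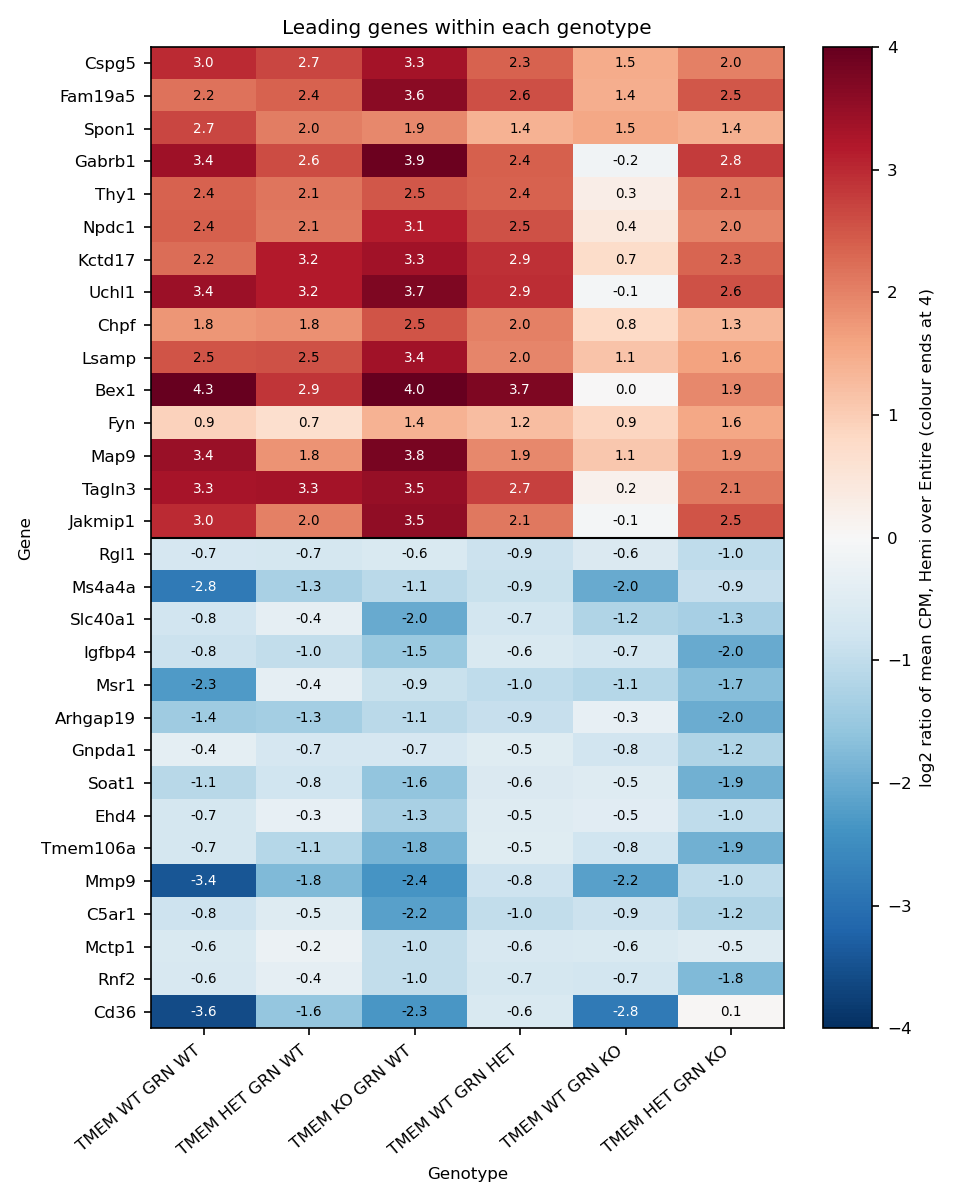
Log2 ratio of mean CPM, Hemi over Entire, for the 15 leading higher and 15 leading lower genes (rows) in each of 6 genotypes (columns); the number in each cell is the ratio. Ratios of 13 of the 15 higher genes are smallest in TMEM WT GRN KO, and Cd36 is the lower gene with a ratio above 0, in TMEM HET GRN KO.

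Transcripts that define microglia were lower in Hemi. Of 22 homeostatic genes 20 were called lower and 0 higher, with a median log2 fold change of -0.88; for 16 of the 22 the size of the difference also depended on genotype by the interaction test given further on. The 4 of smallest p were Entpd1, which breaks down extracellular ATP, Olfml3, a secreted protein, Selplg, a selectin ligand, and Golm1, a Golgi membrane protein. Entpd1 (chromosome 19, 40612366 to 40741602) lay at 459 CPM in Hemi against 876 and 689 CPM in Entire in TMEM WT GRN WT, and at 94.8 CPM against 483 to 626 CPM in TMEM KO GRN WT. Its 2 Hemi libraries of TMEM HET GRN WT held 364 and 578.5 CPM against 544 and 698 CPM, so that 1 of them reached into the Entire range. The fitted change was 2.12-fold lower (log2 -1.08 ± 0.22 SE, adjusted p = 0.0034, edgeR).

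Summed over the homeostatic list, Hemi libraries held 20810, 68780 and 93820 CPM (lowest, median, highest) and Entire libraries 44530, 100600 and 123300 CPM. Values of Hemi and Entire overlapped over all libraries, and the 5 lowest Entire libraries were those of the Grn KO genotypes. The lowest 2 were again the Hemi libraries of TMEM KO GRN WT (20810 CPM) and TMEM HET GRN KO (21350 CPM), which held the most neuron transcripts. Without them 13 of 22 genes were lower with a median of -0.57. In bulk libraries, fewer cells of a type and less RNA per cell cannot be told apart, and neither can a lower level from a larger share of other transcripts. With the log2 neuron sum as a covariate, 0 genes passed in edgeR in either direction (760 at an unadjusted p under 0.05), and the homeostatic median was -0.32. The neuron sum was itself higher in Hemi in most genotypes, so this fit also takes out part of the dissection difference. How far the neuron transcripts and the lower homeostatic values depend on each other was not tested further.

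**Figure D4:**
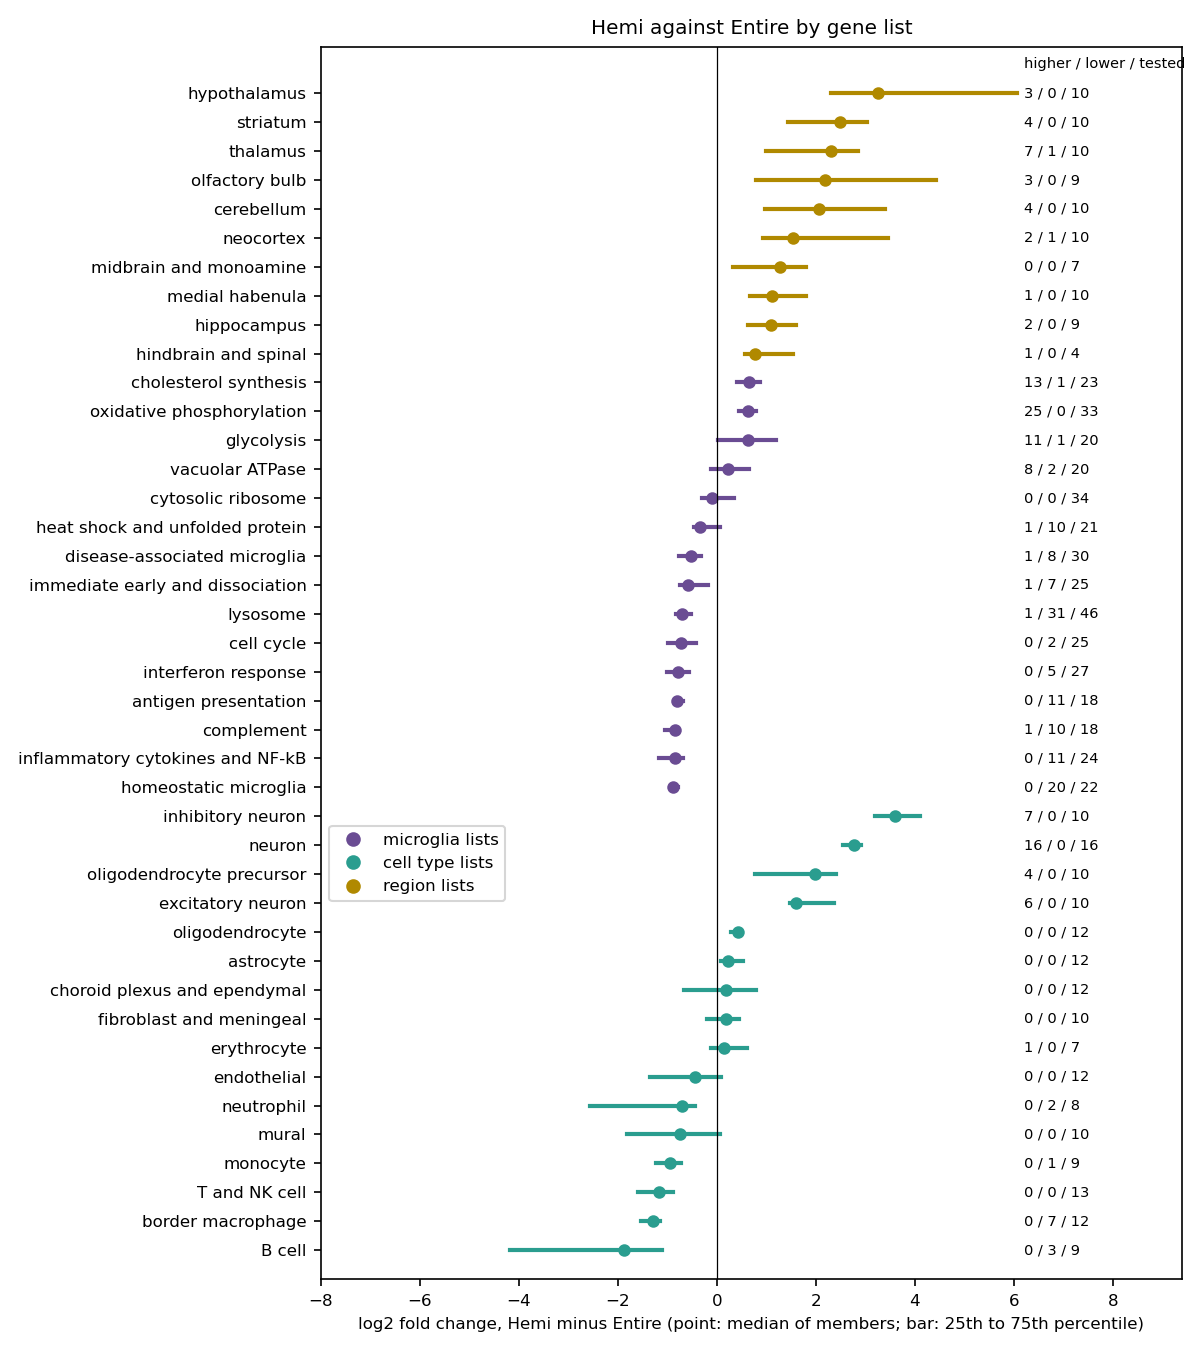
Median log2 fold change, Hemi minus Entire (points), with the 25th to 75th percentile of members (bars) for 41 gene lists, with the counts of genes higher, lower and tested at the right. The inhibitory neuron and neuron lists lie furthest above 0 among the cell type lists, and the homeostatic list lies furthest below 0 among the microglia lists.

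Lysosomal genes fell with the homeostatic ones. Of 46 lysosomal genes 31 were lower and 1 higher, with a median of -0.70. The 4 of smallest p were the cathepsin genes Ctsc and Ctsf, Lipa, the acid lipase that frees cholesterol from its esters, and Asah1, acid ceramidase. Ctsc ran from 182 to 799.5 CPM in Hemi (median 593 CPM) and from 613 to 1363 CPM in Entire (median 1094 CPM), and fell 2.08-fold (log2 -1.06 ± 0.21 SE, adjusted p = 0.0031, edgeR). Its log2 ratio of mean CPM ran from -0.64 in TMEM HET GRN WT to -2.59 in TMEM KO GRN WT. Gaa, which breaks down lysosomal glycogen, was the single lysosomal gene that rose, with a log2 fold change of 0.87 (adjusted p = 0.010, edgeR); it was singled out after its values were seen. Subunits of the V-type proton pump, which acidifies lysosomes and synaptic vesicles, were mixed: 8 of 20 genes were higher and 2 lower, with a median of 0.23. Atp6v1g2 rose 6.09-fold, Atp6v0e2 4.32-fold and Atp6v1h 1.55-fold, while Tcirg1, a subunit gene expressed in macrophages, fell with a log2 fold change of -0.77. In TMEM WT GRN KO Atp6v1g2 and Atp6v1h were lower in Hemi (log2 ratios of mean CPM -0.87 and -0.28), and Atp6v0e2 was higher (0.33). The list sum there was 4782 CPM in Hemi, below the Entire values of 5049 to 5525 CPM.

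Disease-associated microglia genes, a set that microglia raise in neurodegeneration, had 8 of 30 lower and 1 higher, with a median of -0.52. Ctsb, Ctsz, Cd68 and Itgb2 fell with log2 fold changes of -0.76, -0.93, -0.91 and -0.79. The gene that rose was Fabp5, a fatty acid carrier (log2 0.99, adjusted p = 0.047, edgeR), although its plain mean was 15.8 CPM in Hemi and 23.04 CPM in Entire, in groups that hold different shares of each genotype. In TMEM WT GRN KO the list summed to 139800 CPM in Hemi and 144400 to 175400 CPM in Entire, and in TMEM WT GRN WT 34620 CPM and 40600 to 46330 CPM. The gap was wider in TMEM KO GRN WT, at 16920 CPM in Hemi against 49910 to 65770 CPM in Entire, and in TMEM HET GRN KO, at 55520 CPM against 125500 and 179000 CPM. In TMEM HET GRN WT the Hemi libraries held 28450 and 36470 CPM against 42450 and 44770 CPM, while in TMEM WT GRN HET the labels overlapped, at 45940 and 41930 CPM in Hemi and 42360 to 45990 CPM in Entire.

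Immune genes that passed the test were lower in Hemi, with 1 exception. The complement list had 10 of 18 lower and 1 higher, antigen presentation 11 of 18 lower and 0 higher, and inflammatory cytokines and NF-kB 11 of 24 lower and 0 higher, with medians of -0.84, -0.81 and -0.85. C5ar1, the receptor of complement fragment C5a, fell 1.99-fold, and C3ar1 2.08-fold, while Cd59a, an inhibitor of the membrane attack complex, rose 4.97-fold. For C3ar1 the log2 ratio of mean CPM ran from -0.49 in TMEM WT GRN KO to -3.18 in TMEM KO GRN WT. H2-T23, a nonclassical MHC class I gene, had Hemi values of 50.1 to 177 CPM, all below its Entire values of 180 to 337 CPM. The interferon list had 5 of 27 lower (median -0.79), led by Trim30a and Irf9. Of the cytokine genes, Ccl3 fell 2.22-fold, Tnfaip3 2.05-fold, Socs3 1.82-fold and Il1a 1.90-fold. Class I genes are near-identical copies of each other in parts, and how shared reads were counted is not given in the sources used here.

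Immediate early and dissociation genes, which respond within minutes to cell handling, had 7 of 25 lower and 1 higher, with a median of -0.59. Jun, Zfp36 and Atf3 fell with log2 fold changes of -0.67, -0.84 and -1.10, and the gene that rose was the chaperone gene Hsp90aa1 (1.003). Hsp90aa1 had a low mean of 15.9 CPM in Hemi and 8.15 CPM in Entire, and how reads shared with close copies were counted is not given. Heat shock and unfolded protein genes had 10 of 21 lower and 1 higher (median -0.34). The endoplasmic reticulum chaperone genes Calr, Hsp90b1 and Canx fell with log2 fold changes of -0.57, -0.47 and -0.43, and the cytosolic chaperone gene Hsph1 rose with 1.23. Of 25 cell cycle genes 2 were lower and 0 higher, near the 6.96% lower over all genes tested.

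Energy and sterol genes that passed the test were higher in Hemi, with 2 exceptions. Of 33 oxidative phosphorylation genes 25 were higher and 0 lower, with a median of 0.63, led by the ATP synthase subunit gene Atp5o (1.96-fold), the complex I subunit genes Ndufv2 (1.97-fold) and Ndufb5 (1.72-fold), and the complex IV subunit gene Cox6c (1.88-fold). The summed level ran from 4921 to 13330 CPM in Hemi and from 3639 to 7052 CPM in Entire, and in TMEM WT GRN KO the Hemi library at 5217 CPM lay inside the Entire range of 5070 to 5552 CPM. Without the 2 Hemi libraries of most neuron transcripts 5 of the 33 were higher. Of 20 glycolysis genes 11 were higher and 1 lower, with a median of 0.62. Eno2, the neuronal enolase, rose 7.27-fold, Pfkp 3.62-fold, Pfkm 3.34-fold and Aldoc 2.83-fold. In TMEM WT GRN KO the glycolysis sum was 3382 CPM in Hemi, below the Entire values of 3477 to 3688 CPM. There Eno2 and Pfkp were lower in Hemi (log2 ratios of mean CPM -0.57 and -0.27). Pfkm and Aldoc were higher there (0.25 and 1.17). Of 23 cholesterol synthesis genes 13 were higher and 1 lower (median 0.65), with the squalene-forming enzyme gene Fdft1 at 3.03-fold, Sqle at 3.24-fold, Hmgcs1 at 2.08-fold and Pmvk at 1.94-fold. Without the same 2 libraries 4 glycolysis and 6 cholesterol genes were higher.

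No cytosolic ribosome gene was called among 34 (median -0.10, and 0.08 when libraries were scaled by their totals). That list summed to only 721 to 977 CPM in Hemi and 643 to 1272 CPM in Entire, and reads shared with close copies may be missing from it. Scaling by library totals moved the median of all genes by 0.18 on the log2 scale and gave 3607 higher and 782 lower genes, so that higher calls were 82.2% of all calls against 63.1%.

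Among lists of other leukocytes, that of border macrophages held the most called genes. Of 12 genes of border macrophages, which line vessels and meninges, 7 were lower and 0 higher (median -1.30). F13a1 ran from 10.9 to 129 CPM in Hemi and from 58.95 to 273 CPM in Entire, Mrc1 from 9.14 to 85.3 CPM and from 37.3 to 194 CPM. Cbr2 and Cd163 fell with log2 fold changes of -1.32 and -1.31. The summed border macrophage level was 463 to 900 CPM in Hemi and 718 to 1476 CPM in Entire, and within each genotype the Hemi libraries lay below the Entire ones. B cell genes had 3 of 9 lower, neutrophil genes 2 of 8, monocyte genes 1 of 9 and T and NK cell genes 0 of 13. Over all genes tested 6.96% were lower, and the monocyte count is near that share.

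The 15 lower genes of smallest p were Rgl1, Ms4a4a, Slc40a1, Igfbp4, Msr1, Arhgap19, Gnpda1, Soat1, Ehd4, Tmem106a, Mmp9, C5ar1, Mctp1, Rnf2 and Cd36, again from this same contrast. Slc40a1 (chromosome 1, 45908068 to 45926523) encodes ferroportin, the iron exporter. It lay at 131 CPM in Hemi against 229 and 220 CPM in Entire in TMEM WT GRN WT, at 50.1 CPM against 170.5 to 228.5 CPM in TMEM KO GRN WT, and at 179 and 205 CPM against 224 and 268 CPM in TMEM HET GRN WT. In each of the 6 genotypes every Hemi library was below every Entire library, and the fitted log2 fold change was -0.9998 ± 0.16 (SE, adjusted p = 0.00095, edgeR). The size was unequal, with log2 ratios of mean CPM from -0.36 in TMEM HET GRN WT to -2.01 in TMEM KO GRN WT. Msr1 and Cd36, scavenger receptors, fell 2.38-fold and 3.54-fold, and Mmp9, a matrix protease, 3.79-fold. For Cd36 the log2 ratio of mean CPM ran from 0.05 in TMEM HET GRN KO to -3.57 in TMEM WT GRN WT. Soat1, which esterifies cholesterol, fell 1.98-fold, and Igfbp4, which binds insulin-like growth factors, 1.98-fold. Rgl1, an activator of Ral GTPases, and Gnpda1, of amino sugar metabolism, fell 1.69-fold and 1.54-fold.

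The size of the dissection difference was not equal in all genotypes. A joint edgeR F-test of 5 dissection by genotype terms called 1516 of 22271 genes (6.81%), 536 of which were also called for dissection. It called 16 of 22 homeostatic, 16 of 27 interferon, 17 of 46 lysosomal and 11 of 30 disease-associated genes. Calls also fell on 7 of 12 border macrophage, 11 of 24 cytokine and NF-kB, 8 of 18 complement and 8 of 18 antigen presentation genes. Of the neuron genes 0 of 16 were called, which does not show an equal difference. In TMEM WT GRN KO the Hemi neuron sum lay inside the Entire range. The residual SD of the log2 sum was 0.99 for the neuron list and 0.44 for the homeostatic list. In 4 of 6 genotypes the Hemi group was 1 library, so a gene can be called from a single library. Among the 5 genes of smallest p, Galnt4, a glycosyltransferase gene, lay at 0.269 CPM in the Hemi library of TMEM HET GRN KO against 32.8 and 36.6 CPM in Entire, and at 4.25 CPM in that of TMEM KO GRN WT. Pigm, of GPI anchor synthesis, had no count in the Hemi library of TMEM KO GRN WT and 10.3 to 21.3 CPM in the other 7. Nhlrc3 lay at 2.92 CPM in TMEM HET GRN KO Hemi and at 29.0 CPM in TMEM KO GRN WT Hemi against 77.7 to 94.3 CPM in the other 6. Slc22a5, a carnitine transporter gene, was 32.5 and 34.3 CPM in the Hemi libraries of TMEM WT GRN HET against 14.5 to 19.0 CPM in Entire, and 0.323 CPM in TMEM HET GRN KO Hemi. H2-Q6, a class I gene, had no count in TMEM KO GRN WT Hemi. The count of genes called moved by over 1.5 times without single libraries: it was 3009 without TMEM WT GRN HET Hemi 2, and 959 and 876 without TMEM KO GRN WT Entire 1 and 3. It was 1001 without TMEM HET GRN WT Entire 1, 755 and 750 without TMEM WT GRN KO Entire 2 and 3, and 1001 and 978 without TMEM WT GRN HET Entire 1 and 3. For all 5 genes the lowest value lay in 1 of the 2 Hemi libraries that stood apart.

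**Figure D5:**
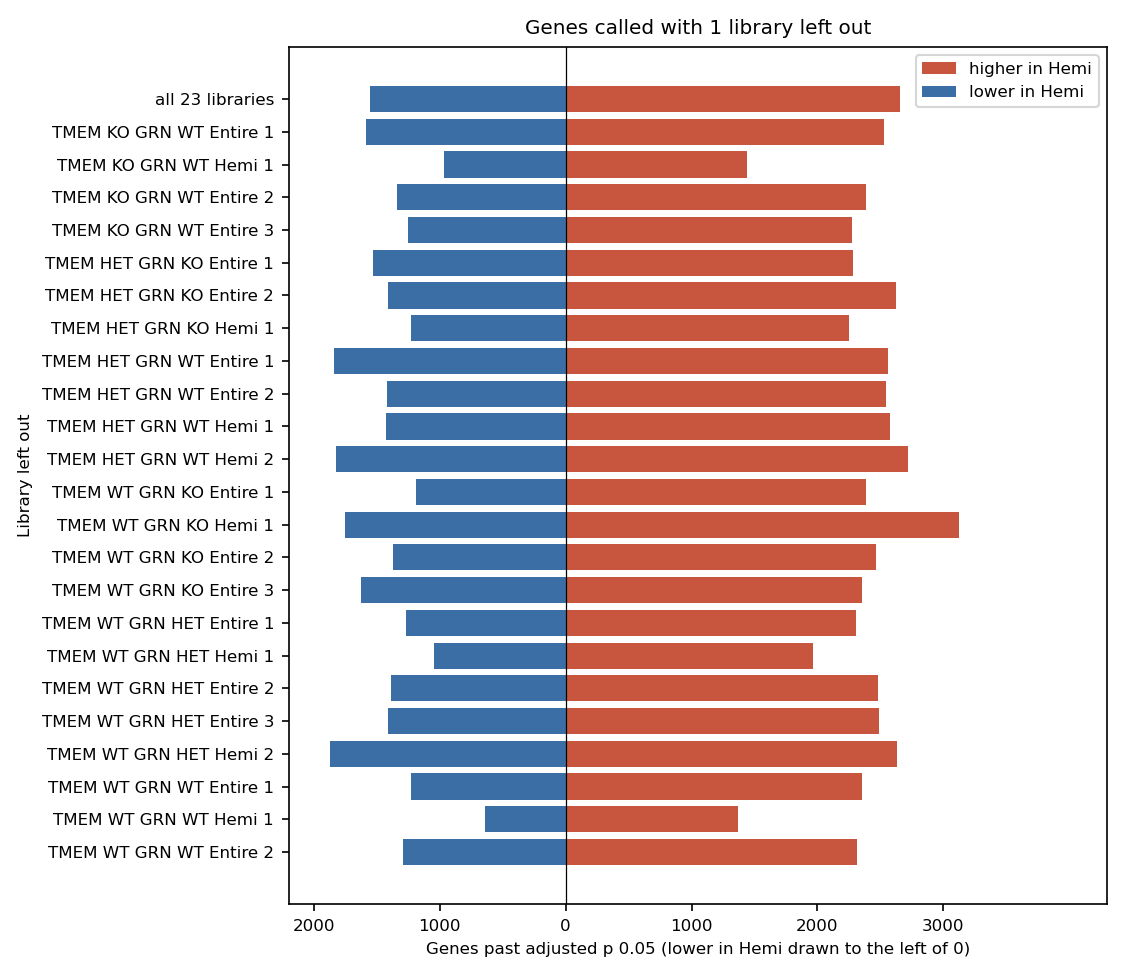
Genes past an adjusted p of 0.05 (x axis; higher in Hemi to the right of 0, lower to the left) when each of the 23 libraries was left out in turn (y axis), with the full set at the top. Leaving out TMEM WT GRN WT Hemi gives the fewest calls, 1367 higher and 641 lower, and leaving out TMEM WT GRN KO Hemi the most higher calls, 3127.

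Leaving out TMEM KO GRN WT Hemi gave 1444 higher and 964 lower genes, and leaving out both Hemi libraries of most neuron transcripts gave 1071 and 631. In each of these settings all genes called there and in the full set kept their direction. This was close to given in advance, because the fits share most libraries.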

How the data were processed

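Microglia poly(A) RNA was measured in 26 libraries made with SMART-Seq v4 and Nextera XT kits, per the labels' protocols. Each deposited file holds raw exonic counts per Ensembl gene and RPKM values computed by the authors, per the file headers. Reads were aligned with GSNAP to GRCm38, per the submitters' processing notes. Counting software, strand setting and handling of shared reads are not given in the sources used here, so overlapping genes and close copies may share reads. RPKM values deposited by the authors served only to recover their library total for the exonic share. GENCODE entries on GRCm38 matched 52489 of 52636 genes.

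After edgeR's expression filter 22271 genes remained, with TMM scaling (edgeR 4.0.16, R 4.3.3). The model held genotype, sex and dissection over 23 libraries, with two-sided quasi-likelihood F-tests, Benjamini-Hochberg adjustment over all genes and an adjusted p threshold of 0.05. The SE is the absolute log2 fold change over the square root of F. CPM of a gene use TMM-scaled totals; list sums use plain totals. Alternatives included DESeq2 1.42.0, limma-voom (limma 3.58.1), other scaling and filters, covariates, genotype subsets and leaving out each library. The model was run on simulated counts with known changes. These had the same dispersion for every gene and no outlying libraries, so they do not bear on the spread in these data. No molecular identifiers were used, so a count is a read.

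Named genes were up to 15 higher and 15 lower with the smallest p (absolute log2 change 0.5 or more, 5 CPM or more, no predicted or Y-linked genes, no Xist), 5 interaction genes, at most 4 genes per list by p and at most 3 per marker list by CPM. The comparison, the members and the gene lists were chosen with earlier results of these data known. Some genes that fall under these rules are not reported here. Replicate numbers only name libraries.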

Additional observations from a re-analysis of the deposited data

Results flagged for a closer look

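Over the 8 Hemi libraries 46 measures were checked (5 library measures and 41 list sums). In 11 of them the gap of a library to the next one was above Dixon's critical share of the group's range. In each of the 11 it was the highest library. The nominal rate of 1 in 20 is for independent, normally distributed values of 1 population. The list sums were not log-transformed, come from 6 genotypes and share members, so 11 of 46 cannot be read against that rate. The Hemi library of TMEM KO GRN WT was highest for the hypothalamus list (222.2 CPM), the midbrain list (381.3 CPM), the olfactory bulb list (954.3 CPM) and the cholesterol synthesis list (1933 CPM). Hemi library 1 of TMEM HET GRN WT was highest for oligodendrocyte genes (27090 CPM), endothelial genes (1187 CPM) and erythrocyte genes (672.6 CPM). Hemi library 2 of TMEM WT GRN HET was highest for choroid plexus genes (43810 CPM). The Hemi library of TMEM HET GRN KO was highest for the medial habenula list (1138 CPM), and that of TMEM WT GRN KO for disease-associated genes (139800 CPM) and T and NK cell genes (251.4 CPM). The 8 Hemi libraries span 6 genotypes, and Entire libraries of the same genotypes reached 1757 CPM of the medial habenula list in TMEM HET GRN KO and 144400 to 175400 CPM of disease-associated genes in TMEM WT GRN KO.

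The dissection effect differed between genotypes at 1516 genes by a joint edgeR test of the difference. Adjusted p were 0.00023 for Galnt4 and 0.000299 for Pigm, Slc22a5, Nhlrc3 and H2-Q6, with the library values given above.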

How the results depend on the processing

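No paired analysis was possible because the labels carry no replicate numbers; the numbers printed here follow accession order and only name libraries. Against 2654 higher and 1550 lower genes, dropping the genotype block gave 1363 and 687, the sex-matched libraries 44 and 3, the Grn WT genotypes 1073 and 74, and the Grn HET and KO genotypes 0 and 0. Omitting the 2 Hemi libraries of most neuron transcripts gave 1071 and 631. Leaving out TMEM KO GRN WT gave 1354 and 722, TMEM WT GRN HET 1680 and 847, and TMEM WT GRN WT 1235 and 452. Library totals gave 782 lower genes and DESeq2 2609. With the neuron sum, or the neuron, oligodendrocyte and choroid plexus sums, as covariates, edgeR gave 0 and 0 (760 and 589 at an unadjusted p under 0.05). Leaving out 1 library gave 1367 to 3127 higher and 641 to 1868 lower genes, and 750 to 3009 interaction genes against 1516, the latter over 19 libraries, since the sole Hemi libraries of 4 genotypes cannot be left out of that test. Within-genotype differences then ran from 0.0506 to 0.0722 (log2 genes detected) and from 0.0626 to 0.0876 percentage points (mitochondrial share). Causes were not tested. The sums used as covariates hold the neuron list genes themselves, Eno2 among them, and the neuron sum followed the Hemi label in most genotypes. Values of neuron genes near 0 in those fits are therefore largely fixed by the model and are no result about dissection.

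With the neuron sum as covariate these log2 values changed sign, all with no call: medians -0.0659 (glycolysis), -0.108 (excitatory neuron), -0.263 (hippocampus), -0.0538 (thalamus), -0.171 (medial habenula), -0.0106 (cerebellum), -0.146 (olfactory bulb), and genes -0.0617 (Hsp90aa1), -0.274 (Atp6v1g2), -0.0771 (Atp6v1h), -0.0457 (Eno2), -0.0986 (Hsph1), -0.149 (Slc17a6), -0.0667 (Gria1), -0.478 (Gad1), -1.51 (Penk), -0.0197 (Calb2). With the 3 sums they were medians -0.0148 (glycolysis), -0.0514 (cholesterol synthesis), -0.086 (neuron), -0.6 (excitatory neuron), -0.206 (neocortex), -0.494 (hippocampus), -0.0721 (thalamus), -0.0279 (medial habenula), -0.285 (hypothalamus), -0.156 (cerebellum), and genes -0.129 (Cd59a), -0.065 (Atp6v1g2), -0.459 (Atp6v0e2), -0.0187 (Atp6v1h), -0.151 (Eno2), -0.152 (Hmgcs1), -0.0219 (Hsph1), -0.591 (Slc17a6), -0.609 (Gria1), -0.589 (Gad1), -0.0773 (Pvalb), -0.235 (Calb1), -1.41 (Penk), -0.353 (Calb2). Of 4635 values of named genes under the alternatives, 4099 stayed on the same side of the threshold with no called value changing sign, 506 lost the call, 6 gained one and these 24 changed sign. The neutrophil median was 0.0961 without TMEM WT GRN KO. Genes called both in the full set and in any other setting kept their direction. That outcome was close to given, since the fits share libraries and only genes called in both are counted. The designs with 1 Hemi library in 4 of 6 genotypes limit what the genotype terms can show.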
